A study of Mus musculus with 18 samples.

Results

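Ribosome biogenesis was followed as a set of 40 genes that encode nucleolar proteins, listed by name for their place in the pathway by a choice made with earlier results of these data known, so that a comparison of these genes with all genes is a description. By gene symbol, 39 of the 40 were found in the expression table of 37303 genes, and all 39 had an estimate with status OK in each of the 6 groups. The remaining symbol, Noc2l, is listed under a clone name and is described separately. The data are poly-A RNA-Seq of liver from 18 mice, with 3 mice in each of 6 groups.

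All mice were on the C57BL/6J background. They were wild type (WT), or carried a homozygous deletion of Gcn2 (Gcn2-/-) or of Atf4 (Atf4-/-), which the paper describes as global. All received 8 daily intraperitoneal injections of asparaginase (ASNase, 3 IU per gram body weight) or of phosphate buffered saline (PBS). By the labels the livers were taken 7.5 h after an injection, and the mice were 8 to 12 weeks old in one field and 8 to 16 weeks in another. Both sexes were used: the WT PBS group and the Gcn2-/- groups each held 1 male of 3, and the remaining groups 2 males of 3. Sex and treatment therefore cannot be told apart in WT livers. The balance of the sexes also differed between Atf4-/- and Gcn2-/- groups, between Atf4-/- and WT under PBS, and between Gcn2-/- and WT under ASNase. Sex and strain cannot be told apart in those comparisons. Asparaginase is a drug that depletes circulating asparagine and, more weakly, glutamine. GCN2, encoded by Eif2ak4, is a kinase that phosphorylates eIF2 when amino acids run short, and ATF4 is the transcription factor translated in response.

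Ribosomes are built in the nucleolus. RNA polymerase I transcribes the precursor of the large ribosomal RNAs, small nucleolar ribonucleoproteins (snoRNPs) guide its methylation and pseudouridylation, and many assembly factors then cut, fold and package it into the 40S and 60S subunits. The pathway consumes much of the energy of a growing cell, is driven by growth signals such as MYC and mTORC1, and is restrained when amino acids are scarce. Hepatocytes are quiescent in the adult, but liver enlarges its nucleoli and its output of ribosomes when it regrows.

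The table holds 1 FPKM value per gene and group (a level scaled to transcript length and to library size), estimated over the 3 libraries of the group and given with an interval. No library has its own value, so no difference below has a replicate check and no p-value is given. Differences are of log2(FPKM + 0.1), so that changes of low genes appear smaller than they are. To be eligible, a gene needed an FPKM over 3 in at least 1 of the groups compared. A difference was past the combined error when it exceeded the root of the summed squared upper half-widths of both intervals. An upper half-width is the log2 distance from a value to its upper bound. The lower bound lies farther off on the log2 scale, so this limit is lenient, and the intervals of a gene past it can overlap. Only a difference past the combined error is written as a rise or a fall. A gene was called when, more strictly, its log2 difference was over 1.5 in size and its intervals did not overlap. The interval edge of a member lay a median of 50.8 to 53.3% of the value away from it, depending on the group, against 51.3 to 54.2% for all genes over 3 FPKM. Nop56, Mybbp1a, Tsr1, Rrp9, Dkc1 and Npm3 had intervals that reached 0 in some groups, and differences of these genes are the least certain. In bulk tissue, fewer cells of a type and less RNA per cell cannot be told apart.

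The deletions were checked first. Atf4 had 50.4 and 63.1 FPKM in WT, 60.04 and 68.1 in Gcn2-/- and 32.3 and 29.3 in Atf4-/- livers, PBS before ASNase as in all such pairs, and was lowest in both Atf4-/- groups. Against WT the log2 difference was -0.64 under PBS, within its error of 0.70, and -1.11 under ASNase, past its error of 0.71. By its FPKM the gene set the strains apart under ASNase only, and both groups labelled Atf4-/- kept signal from it. Eif2ak4 had 3.04 and 2.39 FPKM in WT, 2.31 and 2.96 in Gcn2-/- and 2.19 and 3.14 in Atf4-/- livers, and its values in Gcn2-/- livers lay within those of the other strains, so that total Eif2ak4 signal does not check that label. The paper reports that read density plots of its RNA-Seq showed Atf4 absent in Atf4-/- mice and an exon of Gcn2 absent in Gcn2-/- mice. An FPKM over a whole gene does not show where its reads lie. Markers of hepatocytes were abundant throughout: over the 7 of 10 with status OK in all groups, the median ran from 1033 to 3226 FPKM.

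Ribosome biogenesis genes were highest in Atf4-/- livers given ASNase. The summed FPKM of the 39 members came to 692 (WT), 801 (Gcn2-/-) and 709 (Atf4-/-) under PBS, and to 751, 826 and 1607 after ASNase. Of the 39, 38 had their highest value in Atf4-/- ASNase livers, as did 33.8% of 10172 genes over 3 FPKM in any group. The exception was Nop10, highest in WT PBS livers. Scaling the groups to the same summed FPKM or by median ratio left 36 and 37 members highest in Atf4-/- ASNase livers. The second highest group was Gcn2-/- ASNase for 28 members, against 23.9% of all genes (23 and 25 under these scalings). The median member stood at 11.1, 12.4 and 11.0 FPKM under PBS and at 12.8, 18.6 and 27.4 after ASNase in the same order of strains, so that the PBS groups lay close together.

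**Figure D1:**
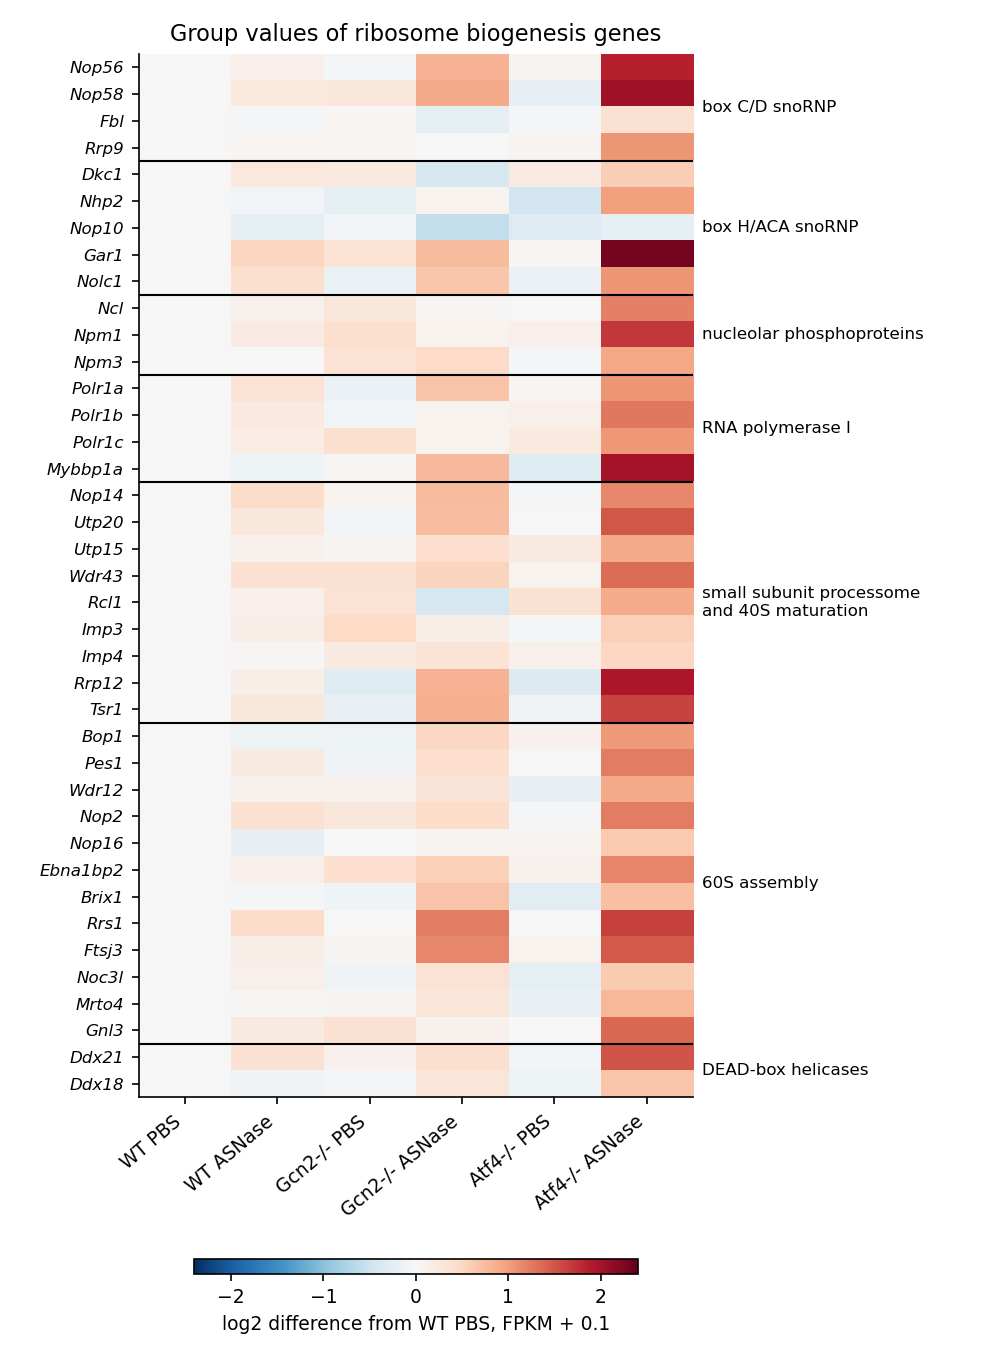
Log2 difference of FPKM + 0.1 from WT PBS (color) for each of 39 members (rows, by role) in the 6 groups (columns). The Atf4-/- ASNase column holds the highest value for every gene but Nop10 (36 of 39 genes with the same summed FPKM in every group), and the Gcn2-/- ASNase column holds the second highest value for 28.

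The members' ASNase response was read first in each strain on its own. In WT livers 30 of 39 members had a higher value after ASNase, against 49% of 9084 eligible genes, and 9 a lower one. The median log2 difference was 0.13 over the 35 eligible members and -0.01 over all eligible genes. The range ran only from -0.24 (Nop10) to 0.52 (Gar1). None of the 35 was past the combined error, where 1.77% of genes were past it upward and 1.24% downward, and none was called, where 0.881% were.

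In Gcn2-/- livers the median was 0.24 over 37 eligible members and 0.02 over all eligible genes, with 29 of 39 higher (51.5% of all eligible genes) and 10 lower. Nolc1, Polr1a, Utp20, Rrp12, Rrs1 and Ftsj3 rose past the combined error (6 of 37, against 7.4% of 9218 genes) and Rcl1 fell (1 of 37, against 8.88%). None was called, where 3.69% of genes were. Utp20, Rrp12 and Polr1a were under 3 FPKM in Gcn2-/- PBS livers and so became eligible through their ASNase value. Among the 34 members over 3 FPKM under PBS, 3 rose and 1 fell.

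In Atf4-/- livers all 39 members had a higher value after ASNase, against 53.8% of eligible genes, with a median of 1.14 against 0.08 over all eligible genes, except that Nop10 turned lower when the groups were scaled to the same summed FPKM. Of the 39, 23 rose past the combined error, against 11.9% of 9485 genes, and 23 were over 2-fold higher, against 10.9%. Nop58, Gar1, Rrp12, Rrs1 and Ddx21 were called, 5 of 39, where 2.74% of genes were called higher and 7.37% were called in either direction. With the same summed FPKM in every group Rrs1 (1.36) and Ddx21 (1.30) were past the error but no longer called. Over the 35 members above 3 FPKM under PBS, which did not need the ASNase value to enter, the median was also 1.14 and 20 rose. The interquartile range of all genes lay between -0.48 and 0.55, and 34 members lay above its upper edge.

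These counts depend on the scaling of the groups. When each group was scaled to the same summed FPKM, the median of all genes in the Atf4-/- response moved from 0.08 to -0.22, in the Gcn2-/- response from 0.02 to 0.25 and in the WT response from -0.01 to 0.15. The median of the members was then 0.89, 0.48 and 0.28, with 16 members past the error in Atf4-/- livers, and all 38 members eligible in Atf4-/- livers stayed above the median of all genes. The share of called genes that were higher went from 37.2 to 21.3% in Atf4-/- and from 42.4 to 58.8% in Gcn2-/- livers under that scaling. With median-ratio scaling, which uses the typical gene, the Atf4-/- median of the members was 1.10.

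**Figure D2:**
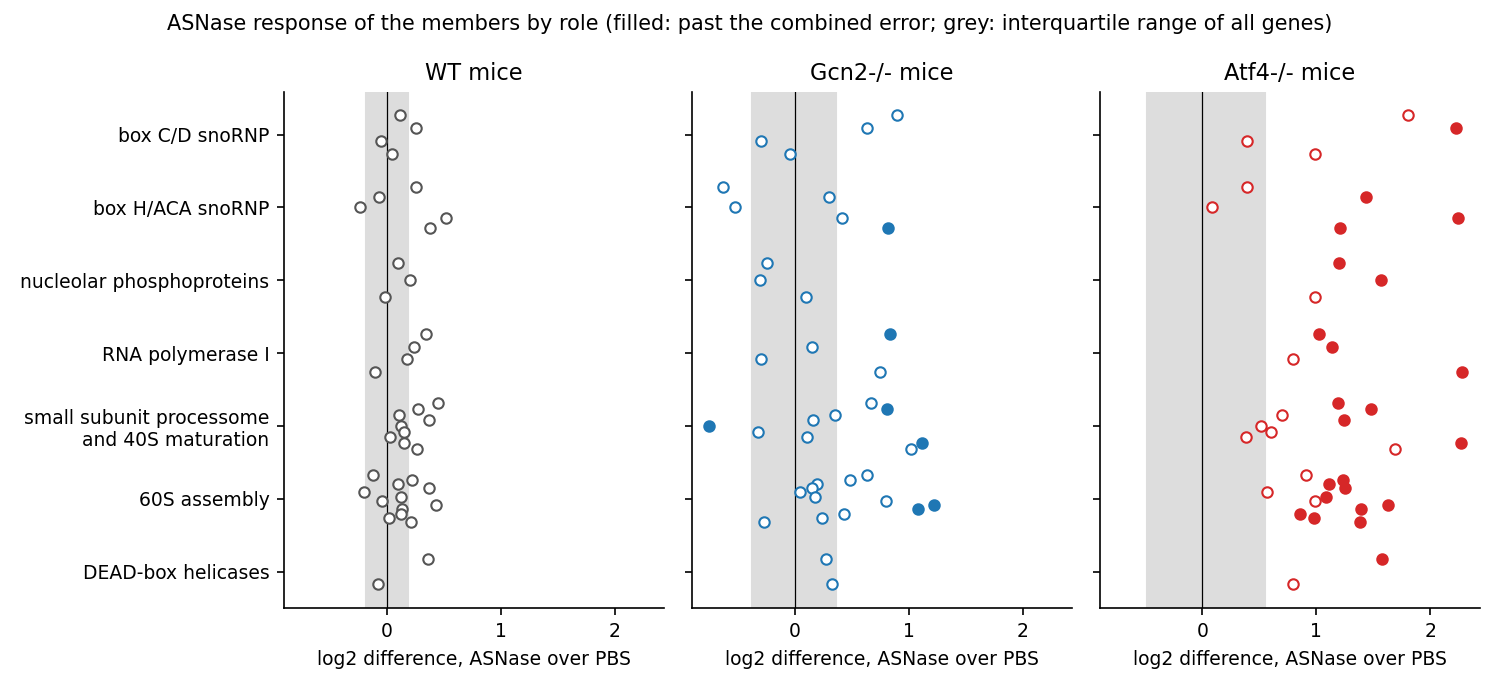
Log2 difference between ASNase and PBS (x axis, log2 of FPKM + 0.1) for each member, by role, in the 3 strains; filled points are past the combined error and the grey band is the interquartile range of all eligible genes. No WT point is filled, 7 are in Gcn2-/- livers, and 23 are in Atf4-/- livers, where all points lie right of 0 (Nop10 falls left of it when the groups are scaled to the same summed FPKM).

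The core proteins of box C/D snoRNPs, which carry the RNAs that direct ribose methylation, responded unequally. Nop58 had 10.03 FPKM in WT, 12.1 in Gcn2-/- and 8.72 in Atf4-/- livers under PBS, and 11.96, 18.8 and 41.2 after ASNase. The Atf4-/- ASNase interval, 23.6 to 58.8 FPKM, did not overlap the Atf4-/- PBS interval of 4.92 to 12.5. The response in Atf4-/- livers was a log2 difference of 2.23 (combined error 0.73), or 4.72-fold, and the Gcn2-/- value of 0.64 stayed within its error of 0.71 (0.86, past the error of 0.71, with the same summed FPKM in every group). Its partner Nop56, the most abundant protein gene of the group by mean FPKM, had 19.98 and 21.6 FPKM in WT, 19.2 and 35.9 in Gcn2-/- and 20.8 and 73.1 in Atf4-/- livers. The Atf4-/- ASNase value was 3.51-fold the PBS value, a log2 difference of 1.80 (combined error 1.97) and so not past it, with intervals of Nop56 that reached 0. Fbl encodes fibrillarin, the methyltransferase of the same particle. It had 21.9 and 21.2 FPKM in WT, 22.7 and 18.6 in Gcn2-/- and 21.5 and 28.3 in Atf4-/- livers, and no response of Fbl was past its error. Rrp9, a protein of the U3 snoRNP, had a response of 0.99 (combined error 1.51) in Atf4-/- livers.

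Box H/ACA snoRNPs carry the pseudouridine synthase dyskerin (Dkc1) with Nhp2, Nop10 and Gar1. Gar1 had 8.92 FPKM in WT, 11.3 in Gcn2-/- and 9.25 in Atf4-/- livers under PBS, and 12.8, 15.2 and 44.2 after ASNase. Its Atf4-/- response was 2.24 (combined error 0.98), 4.77-fold, with separate intervals of 2.67 to 15.8 and 21.3 to 67.00 FPKM. The other 5 groups lay between 8.92 and 15.2 FPKM. Nhp2 had 20.6 and 19.7 FPKM in WT, 17.6 and 21.8 in Gcn2-/- and 14.99 and 40.7 in Atf4-/- livers, a rise of 1.44 (combined error 0.95) in Atf4-/- livers. Nolc1 encodes Nopp140, a chaperone of snoRNPs. With 6.97 and 9.09 FPKM in WT, 6.23 and 11.1 in Gcn2-/- and 6.29 and 14.7 in Atf4-/- livers, it rose in both knockouts, by 0.82 (combined error 0.72) and 1.21 (combined error 0.71). Dkc1 and Nop10, the other subunits of the particle, were not past their errors. Their Atf4-/- responses were 0.39 (combined error 1.35) and 0.09 (combined error 0.71). Nop10 is the most abundant gene of the group, with 40.9 and 34.8 FPKM in WT, 39.01 and 27.1 in Gcn2-/- and 33.1 and 35.2 in Atf4-/- livers, and its lowest value was in Gcn2-/- ASNase livers.

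The nucleolar phosphoproteins nucleophosmin (Npm1) and nucleolin (Ncl) rose after ASNase in Atf4-/- livers, and in the other strains their responses were within the error. Npm1 is the most abundant member of all, at 124 FPKM in WT, 163 in Gcn2-/- and 134 in Atf4-/- livers under PBS, and 143, 132 and 399.8 after ASNase. The other 5 groups spanned 124 to 163 FPKM, and the Atf4-/- response was 1.57 (combined error 0.81). Ncl had 18.2 and 19.5 FPKM in WT, 21.96 and 18.6 in Gcn2-/- and 18.3 and 42.04 in Atf4-/- livers, with an Atf4-/- response of 1.20 (combined error 0.80). In Gcn2-/- livers both were slightly lower after ASNase, by log2 values of -0.30 and -0.24 that were within their errors. The histone chaperone relative Npm3 was higher in Atf4-/- livers by 0.99, within an error of 1.72.

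Among the RNA polymerase I genes, the catalytic subunits rose. Polr1a, the largest subunit, had 3.29 and 4.20 FPKM in WT, 2.97 and 5.38 in Gcn2-/- and 3.39 and 7.0 in Atf4-/- livers. It rose by 0.84 (combined error 0.71) in Gcn2-/- and by 1.02 (combined error 0.70) in Atf4-/- livers. Polr1b, the second subunit, had 4.58 and 5.41 FPKM in WT, 4.35 and 4.85 in Gcn2-/- and 4.98 and 11.1 in Atf4-/- livers and rose in Atf4-/- livers by 1.14 (combined error 1.03), close to its error. Polr1c, shared with RNA polymerase III, was higher by 0.79, within 0.92. Mybbp1a encodes a nucleolar Myb-binding protein that associates with RNA polymerase I. It had the largest log2 difference of the members, 2.28 (combined error 1.47), with 22.1 and 20.6 FPKM in WT, 22.7 and 38.2 in Gcn2-/- and 18.1 and 88.6 in Atf4-/- livers. Its intervals were wide, 0 to 37.8 FPKM under PBS, so it was not called, and its exons overlap those of Spns2 on the opposite strand, whose reads cannot be told apart from its own here.

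**Figure D3:**
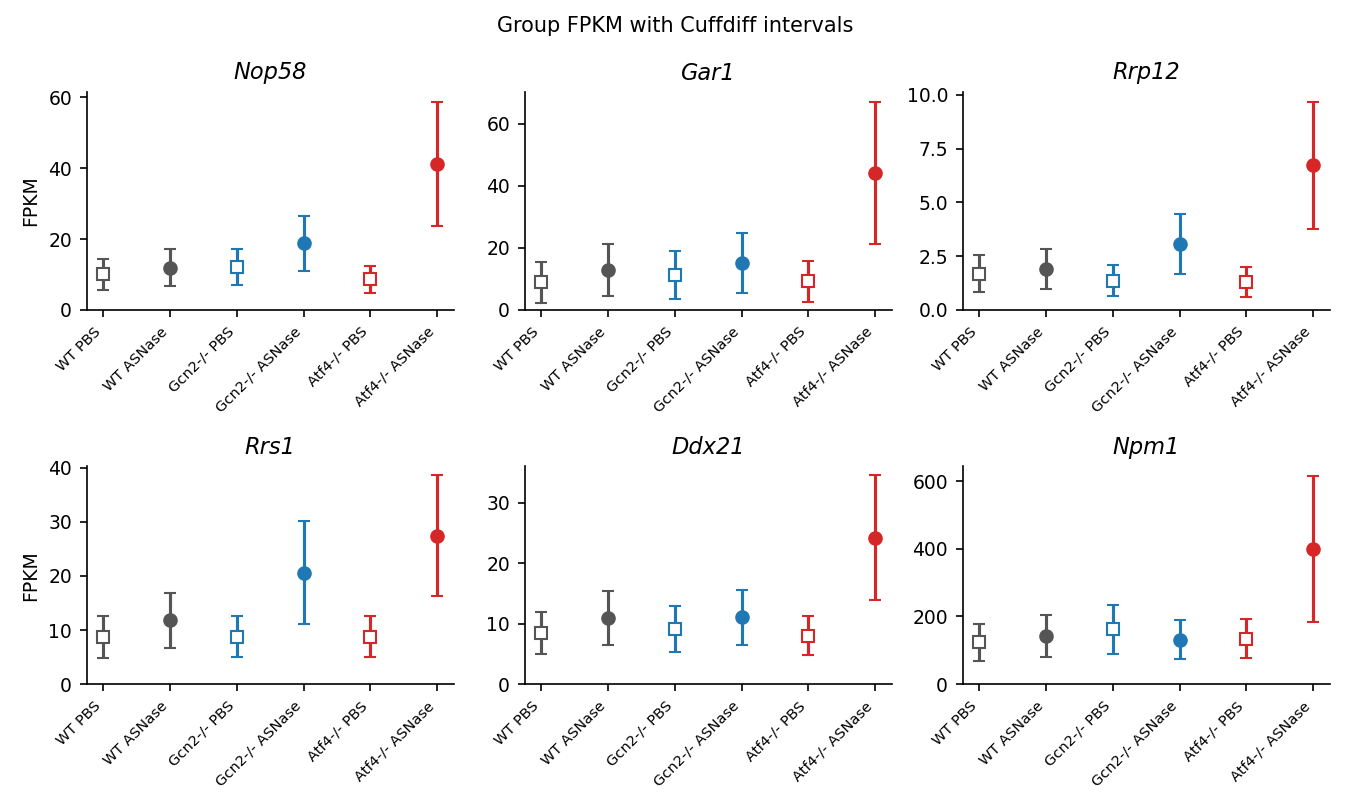
FPKM (y axis, linear, from 0) with the interval estimated with it (bars) in the 6 groups for the 5 called members and Npm1; open squares are PBS and filled circles ASNase. In each panel the Atf4-/- ASNase value is the highest, as for Gar1 at 44.2 FPKM, and the Gcn2-/- ASNase value is past the error over Gcn2-/- PBS for Rrp12 and Rrs1.

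The small subunit processome binds the nascent precursor and prepares the 18S part of it. Rrp12, needed for maturation and export of pre-40S particles, had 1.68 FPKM in WT, 1.36 in Gcn2-/- and 1.31 in Atf4-/- livers under PBS, and 1.88, 3.08 and 6.72 after ASNase. It rose by 1.12 (combined error 0.79) in Gcn2-/- and by 2.27 (combined error 0.78), 5.11-fold, in Atf4-/- livers. Rrp12 was low, with only the ASNase values of the knockouts over 3 FPKM. Utp20, a large scaffold of the processome, had 2.04 and 2.495 FPKM in WT, 1.94 and 3.48 in Gcn2-/- and 2.07 and 5.96 in Atf4-/- livers. It rose by 0.81 (combined error 0.71) and 1.48 (combined error 0.70) in Gcn2-/- and Atf4-/- livers, and its Atf4-/- intervals were separate although the difference fell short of the limit of 1.5. Wdr43, a subunit that joins the particle early, had 5.85 and 7.58 FPKM in WT, 7.61 and 8.51 in Gcn2-/- and 6.25 and 14.9 in Atf4-/- livers and rose by 1.24 (combined error 0.71) in Atf4-/- livers. Nop14, another component of the processome, had 7.44 and 10.2 FPKM in WT, 7.94 and 12.7 in Gcn2-/- and 7.19 and 16.6 in Atf4-/- livers and sat at the edge of its error in Atf4-/- livers, 1.19 (combined error 1.19), and within it under either other scaling.

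Rcl1 behaved differently from the other processome genes. It is abundant in liver, at 75.1 FPKM in WT, 95.8 in Gcn2-/- and 97.3 in Atf4-/- livers under PBS, and 81.8, 56.97 and 139 after ASNase. In Gcn2-/- livers it fell by 0.75 on the log2 scale after ASNase, past an error of 0.73, and was the only member to fall in any response. With the same summed FPKM in every group its difference was -0.52, within the error. In Atf4-/- livers its value was higher by 0.51, within 0.79. Imp3 and Imp4, which hold U3 RNA to the precursor, had Atf4-/- responses of 0.60 and 0.38, within their errors. Tsr1, an assembly factor of late pre-40S particles, had 7.43 and 8.97 FPKM in WT, 6.56 and 13.5 in Gcn2-/- and 7.05 and 23.02 in Atf4-/- livers, and its log2 difference of 1.69 (combined error 1.87) in Atf4-/- livers was not past it. Utp15, a subunit of the complex that binds the precursor first, was at 2.52 and 4.15 FPKM in the Atf4-/- groups.

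Of the 60S assembly factors, 9 of 12 rose in Atf4-/- livers, with a median log2 difference of 1.10 over the group. Pes1, Bop1 and Wdr12 form a complex that processes the precursor of 28S RNA. Pes1 had 16.9 and 19.7 FPKM in WT, 15.9 and 22.3 in Gcn2-/- and 16.9 and 39.8 in Atf4-/- livers and rose by 1.24 (combined error 0.92). Wdr12 had 8.70 and 9.35 FPKM in WT, 9.39 and 10.8 in Gcn2-/- and 7.58 and 16.5 in Atf4-/- livers and rose by 1.11 (combined error 1.05), while Bop1 was higher by 0.91, within 1.06. All 3 were highest in Atf4-/- ASNase livers, and none was past its error in the other strains.

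Rrs1, which helps recruit the 5S particle, had 8.74 FPKM in WT, 8.76 in Gcn2-/- and 8.76 in Atf4-/- livers under PBS, and 11.8, 20.6 and 27.4 after ASNase. It rose by 1.23 (combined error 0.75) in Gcn2-/- livers, the largest response of the members there, and by 1.63 (combined error 0.71) in Atf4-/- livers, 3.13-fold. Ftsj3, a factor of pre-rRNA processing, had 14.8 and 16.2 FPKM in WT, 15.6 and 33.2 in Gcn2-/- and 15.6 and 41.1 in Atf4-/- livers, with rises of 1.09 (combined error 0.84) and 1.39 (combined error 0.92). For these genes the Gcn2-/- ASNase value lay between the PBS level and the Atf4-/- ASNase value. Both were also the only members higher in Gcn2-/- than in WT livers under ASNase past the combined error, by 0.80 and 1.03.

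Nop2 encodes an RNA methyltransferase of the 60S pathway. It had 6.26 and 8.14 FPKM in WT, 7.62 and 8.50 in Gcn2-/- and 6.15 and 14.8 in Atf4-/- livers and rose by 1.25 (combined error 0.73) in Atf4-/- livers. Gnl3, or nucleostemin, a GTPase of dividing and stem cells, had 15.5 and 17.99 FPKM in WT, 19.97 and 16.5 in Gcn2-/- and 15.4 and 40.3 in Atf4-/- livers and rose by 1.38 (combined error 1.14). Neither gene was past its error in WT or Gcn2-/- livers. The pre-60S factor Ebna1bp2 is the most abundant gene of the group, at 22.98 and 25.1 FPKM in WT, 30.3 and 34.4 in Gcn2-/- and 24.5 and 52.1 in Atf4-/- livers, with a rise of 1.08 (combined error 0.86) in Atf4-/- livers. Mrto4, a placeholder for the ribosomal stalk, had 17.9 and 18.1 FPKM in WT, 18.6 and 22.00 in Gcn2-/- and 15.7 and 31.1 in Atf4-/- livers and rose by 0.98 (combined error 0.78). Noc3l, a factor of nucleolar 60S precursors, had 1.94 and 2.12 FPKM in WT, 1.83 and 2.51 in Gcn2-/- and 1.64 and 3.06 in Atf4-/- livers and its rise of 0.86 (combined error 0.78) rests on values near the 3 FPKM limit. With the same summed FPKM in every group Wdr12, Gnl3, Ebna1bp2, Mrto4 and Noc3l were within their errors in Atf4-/- livers, as was Polr1b. Nop16 and Brix1, also factors of early 60S precursors, were higher by 0.57 and 0.99, within their errors.

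Both DEAD-box helicases were higher in Atf4-/- livers. Ddx21, which acts on RNA polymerase I transcription and on snoRNAs, had 8.46 FPKM in WT, 9.09 in Gcn2-/- and 8.06 in Atf4-/- livers under PBS, and 10.9, 11.04 and 24.2 after ASNase. Its response was 1.58 (combined error 0.71), 3.004-fold, and its Atf4-/- intervals of 4.76 to 11.4 and 13.8 to 34.6 FPKM did not overlap. The other 5 groups lay between 8.06 and 11.04 FPKM. Ddx18 had 11.1 and 10.5 FPKM in WT, 10.7 and 13.5 in Gcn2-/- and 10.2 and 17.7 in Atf4-/- livers, a difference of 0.79 (combined error 0.98).

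The role groups had similar medians in Atf4-/- livers, from 1.08 for the RNA polymerase I genes to 1.40 for the box C/D proteins. In Gcn2-/- livers they ran from -0.24 for the nucleolar phosphoproteins to 0.45 for the RNA polymerase I genes. In WT livers all 7 lay between 0.08 and 0.25. Within a group the members spread more than the groups did: among the box H/ACA genes alone the Atf4-/- response ran from 0.09 to 2.24.

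The size of the response was then compared between strains. The difference between the Atf4-/- and the WT response was past the combined error of its 4 values for 9 of 35 members, against 4.86% of 8770 genes that were past it in the same direction. These were Nop58, Nhp2, Gar1, Ncl, Npm1, Mybbp1a, Rrs1, Ftsj3 and Ddx21, with 1.97 (combined error 1.03) for Nop58 and 1.72 (combined error 1.45) for Gar1. Between the Atf4-/- and the Gcn2-/- response it was 9 of 37, against 3.09% of 8911 genes: Nop58, Gar1, Ncl, Npm1, Wdr43, Rcl1, Rrp12, Nop2 and Ddx21. The difference was 1.88 (combined error 1.10) for Npm1 and 1.26 (combined error 1.07) for Rcl1. Between the Gcn2-/- and the WT response none of 35 members was past it, against 3.53% of 8650 genes with the larger response in Gcn2-/- and 5.36% with the smaller. The contrast of Atf4-/- with each other strain was sensitive to scale: with the same summed FPKM in every group, 1 and 2 members stayed past the error.

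All 39 members had a larger response in Atf4-/- livers than in either other strain, with the values as deposited and by median ratio, but only 26 did with the same summed FPKM in every group. Of the 39, 24 followed the order Atf4-/-, Gcn2-/-, WT (14 with the same summed FPKM). The value was higher after ASNase in all 3 strains for 22 members, while 10 were lower in Gcn2-/- and higher in Atf4-/- livers (29 and 8 with the same summed FPKM). The 6 members that rose in Gcn2-/- livers were all among the 23 that rose in Atf4-/- livers (100% of the first list and 26.1% of the second). Across the 39 members, the Gcn2-/- and Atf4-/- responses had a Pearson r of 0.62 and a Spearman rho of 0.60, given as a description of genes measured in the same 12 libraries. The Atf4-/- response and the FPKM under PBS had an r of -0.27, a description that shares the PBS values. The orders, the overlap and the correlations in this paragraph were not computed over all genes. Whether they are particular to the members is therefore not known.

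**Figure D4:**
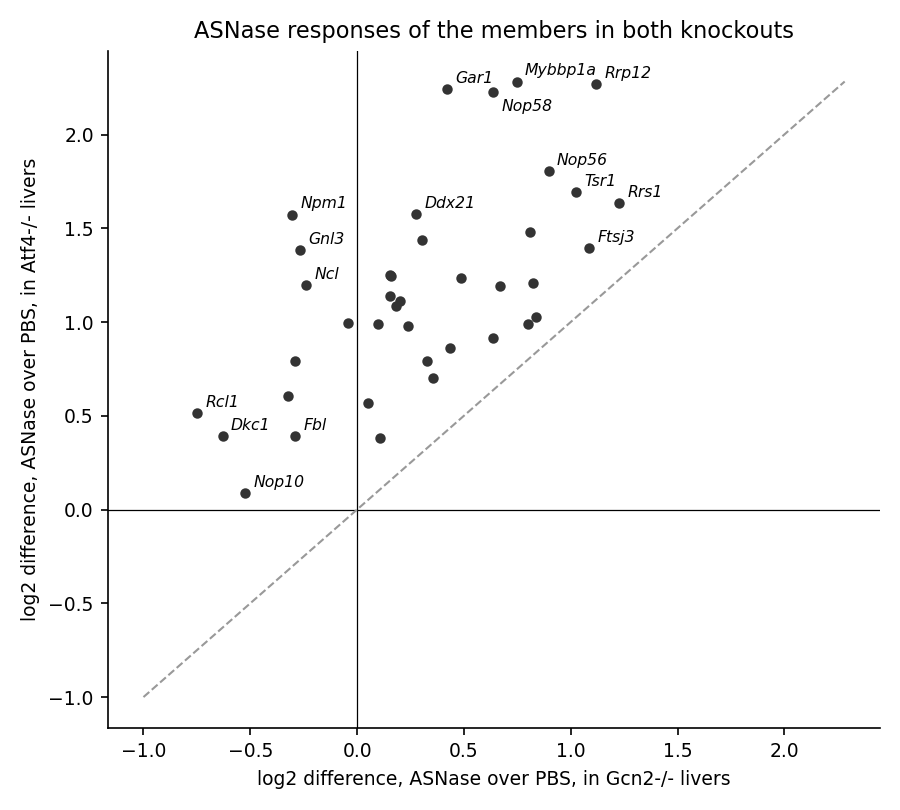
Log2 difference between ASNase and PBS of each of the 39 members in Gcn2-/- livers (x axis) and Atf4-/- livers (y axis), both in log2 of FPKM + 0.1; the dashed line marks equal responses. All points lie above the line (29 do with the same summed FPKM in every group), and Npm1, Ncl and Gnl3 lie left of 0 but above 1 on the y axis.

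Under PBS no member differed between strains past the combined error. In Gcn2-/- against WT livers under PBS, the median of 35 eligible members was 0.07, next to 0.06 over all genes, and in Atf4-/- against WT livers it was -0.00. For members the count past the error was 0 in both comparisons, where 1.68% and 1.58% of genes were past it upward and 2.44% and 2.31% downward. None was called, where 1.04% and 1.12% of genes were. The lowest member difference was -0.45 for Nhp2 in Atf4-/- livers and the highest 0.48 for Imp3 in Gcn2-/- livers. With the same summed FPKM in every group the medians became -0.12 and 0.11, as did those of all genes (-0.13 and 0.11).

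Under ASNase, Atf4-/- livers held more members past the error against WT than Gcn2-/- livers did. Against WT ASNase, which is the same control for both knockouts, the median of the Gcn2-/- members was 0.27 with 2 of 37 past the combined error (7.62% of 9423 genes were past it upward) and none called (4.41% of genes were). The Atf4-/- median was 0.97 with 21 of 39 past the error (11.5% of 9577 genes). Nop58, Gar1 and Rrp12 were called, at 1.78, 1.77 and 1.78, where 2.59% of genes were called higher and 8.25% in either direction. Rrp12 and 3 other members were under 3 FPKM in WT ASNase livers and became eligible through the Atf4-/- value. Among the 35 members over 3 FPKM there, the median was also 0.97 and 18 were past the error. Utp15, Bop1 and Nop16 were past the error here and not in the Atf4-/- response. With the same summed FPKM in every group, 9 members stayed past the error and none called, and the share of called genes that were higher went from 31.4 to 18.2%.

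A wider set of pathway genes was read in the same way. Of 94 further assembly factors 92 were found, and 46 of 89 eligible ones rose in Atf4-/- livers after ASNase (11.9% of all eligible genes), with a median of 0.84 and 90 of the 92 at a higher value (53.8% of all eligible genes). Of the 75 over 3 FPKM under PBS, which excludes Nle1 and Rrp1b, 37 rose. With the same summed FPKM in every group 24 rose and 82 were higher. Sdad1 was the 1 called, and none was with the same summed FPKM. Nle1, a factor of late 60S assembly, had 2.69 and 3.49 FPKM in WT, 2.65 and 4.22 in Gcn2-/- and 2.74 and 12.8 in Atf4-/- livers. Rrp1b, a nucleolar regulatory subunit of a phosphatase, had 2.09 and 1.96 FPKM in WT, 2.25 and 4.11 in Gcn2-/- and 2.04 and 7.49 in Atf4-/- livers. Eif6, which keeps new 60S subunits from joining 40S subunits too early, had 40.5 and 37.5 FPKM in WT, 42.3 and 94.9 in Gcn2-/- and 43.04 and 145 in Atf4-/- livers, and it rose in Gcn2-/- livers by 1.17 as well as in Atf4-/- livers by 1.75. In Gcn2-/- livers Nol10 and Nol6 rose too, by 0.95 and 0.85, so 3 of 85 did (14 with the same summed FPKM), a smaller share than the 7.4% of all eligible genes. In WT livers none of 78 rose, against 1.77%.

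Of the RNA polymerase I machinery beyond the members, 3 of 10 eligible genes rose in Atf4-/- livers, against 11.9% of all eligible genes, and these 3 are subunits of the enzyme. Of the 8 over 3 FPKM under PBS, 2 rose, since Cd3eap was eligible through its ASNase value. Twistnb (RPA43) had 5.57 and 6.48 FPKM in WT, 6.59 and 7.47 in Gcn2-/- and 6.05 and 18.97 in Atf4-/- livers and was called, though not with the same summed FPKM. Polr1e had 3.84 and 3.14 FPKM in WT, 3.66 and 5.38 in Gcn2-/- and 3.08 and 8.25 in Atf4-/- livers, and Cd3eap had 2.58 and 3.24 FPKM in WT, 2.72 and 3.59 in Gcn2-/- and 2.71 and 6.38 in Atf4-/- livers. None of this list rose in the other strains. All 11 found genes of the RNA exosome, which trims the ends of precursor RNAs, were higher in Atf4-/- livers with a median of 0.64 (9 with the same summed FPKM in every group), against 53.8% of all eligible genes. Of the 11, 2 rose, against 11.9%: Exosc9 and Exosc1, by 1.23 and 1.15. In Gcn2-/- livers 10 of 11 were higher with a median of 0.44, against 51.5%, and 1, Exosc1, rose by 0.83, against 7.4%.

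Among 10 regulators of growth that act on the pathway, Myc changed most. Of 8 eligible in Atf4-/- livers, 2 rose (Myc and Mnt), against 11.9% of all eligible genes, and none fell. Both were under 3 FPKM under PBS, and of the 6 over 3 FPKM there none rose. Over all 10, 7 were higher and 3 lower, down to a log2 difference of -1.73. Under either other scaling of the groups 1 fell past its error. Myc encodes the transcription factor that drives many genes of ribosome production. It had 1.38 and 2.12 FPKM in WT, 2.08 and 2.71 in Gcn2-/- and 1.75 and 13.8 in Atf4-/- livers, PBS before ASNase. Only the Atf4-/- ASNase value was above 3 FPKM, and the response there was a log2 difference of 2.91, which was called. Mnt, an antagonist of MYC that also pairs with MAX, had 2.01 and 2.12 FPKM in WT, 2.18 and 2.46 in Gcn2-/- and 2.38 and 8.03 in Atf4-/- livers and rose by 1.71 in Atf4-/- livers. None of this list rose or fell in WT or Gcn2-/- livers.

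Genes of cell division were low in every group. The median FPKM of 10 proliferation genes was 0.41 in Atf4-/- ASNase livers, the lowest of the 6 groups, and at most 1.39 in WT PBS livers. After ASNase 4 of the 10 were higher and 6 lower in Atf4-/- livers, with a median log2 difference of -0.91. In Gcn2-/- livers 2 were higher and 8 lower, with a median of -0.97, and in WT livers 4 were higher and 6 lower, with a median of -0.11. Mki67 was at 0.269 and 0.0589 FPKM in Atf4-/- PBS and ASNase livers, and Top2a at 0.601 and 0.121. Pcna, which also serves DNA repair, was at 16.1 and 21.04, within its error. Most of the list was under 3 FPKM and not eligible, and none of the 1 or 2 eligible genes in each strain was past the combined error.

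**Figure D5:**
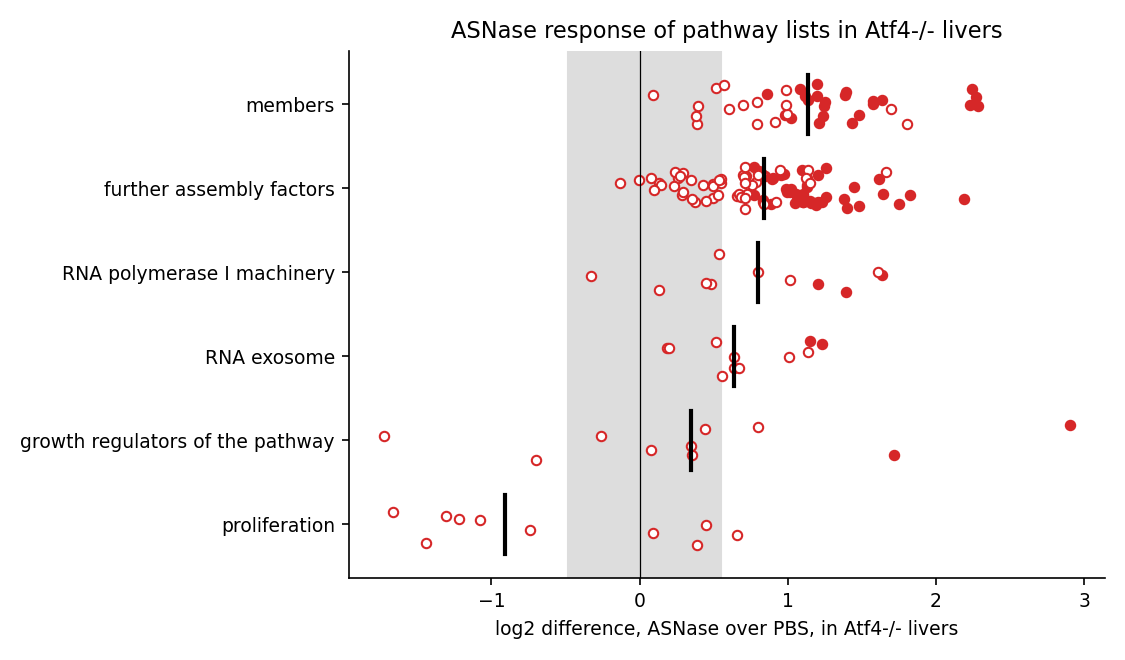
Log2 difference between ASNase and PBS in Atf4-/- livers (x axis, log2 of FPKM + 0.1) for the 39 members and 5 other lists; each point is a gene, filled when past the combined error, black bars are medians over all points and the grey band is the interquartile range of all eligible genes. Members and further assembly factors lie mostly right of the band, Myc is the farthest point on the right at 2.91, and proliferation genes, most of them under 3 FPKM, have their median left of 0.

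The promoters of the members were read for the E-box CACGTG, the site that MYC with MAX and several other basic helix-loop-helix proteins are known to bind. The motif is its own reverse complement, so both strands are covered. RefSeq windows on GRCm38.p6, from 250 bases before the start site to 50 after it, were at hand for 34 of the 39 members. The motif was in 7 of them (20.6%), against 8.09% of 27018 genes and 7.15% of 32841 windows. Of these 7 genes, 5 rose in Atf4-/- livers, next to 23 of all 39 members, and Imp4 and Tsr1 stayed within their errors. None of the 5 called members was among the 7, and 2 of those called, Rrp12 and Rrs1, had no window. Those 7 places are shown because they are where the motif lies in the members, with up to 12 bases on each side and the E-box in capitals.
Imp4 (chr1:34439696-34439725, plus strand, motif beginning 121 bases upstream of the start): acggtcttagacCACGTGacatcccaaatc
Mybbp1a (chr11:72441355-72441376, plus strand, motif beginning 41 bases downstream of the start): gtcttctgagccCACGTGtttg
Nop2 (chr6:125131811-125131840, plus strand, motif beginning 60 bases upstream of the start): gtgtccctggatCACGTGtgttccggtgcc
Pes1 (chr11:3963965-3963994, plus strand, motif beginning 3 bases downstream of the start): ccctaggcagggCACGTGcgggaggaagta
Tsr1 (chr11:74898092-74898121, plus strand, motif beginning 25 bases downstream of the start): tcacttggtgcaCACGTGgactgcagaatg
Utp20 (chr10:88826765-88826789, minus strand, motif beginning 38 bases downstream of the start): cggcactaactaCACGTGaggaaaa
Wdr43 (chr17:71616220-71616249, plus strand, motif beginning 18 bases downstream of the start): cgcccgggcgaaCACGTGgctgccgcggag
Downstream of the start site lay 5 of the 7 motifs, and upstream 2. The Atf4-/- responses of these genes were 0.38 for Imp4, 2.28 for Mybbp1a, 1.25 for Nop2, 1.24 for Pes1, 1.69 for Tsr1, 1.48 for Utp20 and 1.24 for Wdr43, next to the median of 1.14 over all members. The letters TGATGNAA, the form of the site that ATF4 shares with C/EBP proteins, were searched on both strands and were in 1 of the 34 (2.94%), against 4.51% of 27018 genes. A match describes the letters of the window and not binding.

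The members lie on 16 chromosomes (GENCODE annotation of GRCm38, the assembly that mm10 names). The called genes are Nop58 (chr1:59684971-59719044, plus strand), Gar1 (chr3:129824912-129831396, minus strand), Rrp12 (chr19:41862851-41896173, minus strand), Rrs1 (chr1:9545408-9547455, plus strand) and Ddx21 (chr10:62580251-62602281, minus strand). Rrs1 is a gene of 1 exon, and Rrp12 has 34. Annotated snoRNA genes lie inside 7 members, 21 in all: 5 in Nop56, 4 in Nop58, 3 each in Ncl, Wdr43 and Gnl3, 2 in Tsr1 and 1 in Dkc1. The exons of 17 members overlap exons of another gene. Without these 17, 13 of 22 members rose in Atf4-/- livers, among them 4 of the 5 called genes, since Nop58 shares exon bases with a snoRNA gene.

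Markers of other cells moved with the groups as well. The summed FPKM of 4 erythroid markers was 217, 125 and 185 in WT, Gcn2-/- and Atf4-/- livers under PBS and 126, 10.9 and 6.68 after ASNase. Of the 4, 3 fell in each knockout, where 8.88% of eligible genes fell in Gcn2-/- livers. In Atf4-/- livers 1293 of 9485 eligible genes fell, the base for all falls of markers there. In WT livers 2 fell (1 with the same summed FPKM), against 1.24%. For 8 skeletal muscle markers it was 807, 5.78 and 64.96 under PBS and 1158, 8.85 and 143 after ASNase. The 7 hepatocyte markers summed to 23503, 26198 and 21475 FPKM under PBS and 18029, 14771 and 14036 after ASNase, lowest in Atf4-/- ASNase livers, where Ttr and Apoc3 fell. Of 7 Kupffer cell and macrophage markers, 4 fell and 1 (Marco) rose in Atf4-/- livers, with sums of 276 under PBS and 170.5 under ASNase. In WT livers all 7 were lower and 2 fell (1 with the same summed FPKM). Of these 7 markers, 2 rose and 2 fell (1 fell with the same summed FPKM) in Gcn2-/- livers, where 6 members rose, with Marco called higher at 3.80 (combined error 0.78) and sums of 161 and 219. There 3 of 9 eligible hepatocyte markers fell and 1 rose (2 and 2 with the same summed FPKM), and both eligible neutrophil markers fell, S100a9 by 4.41 (combined error 1.43) and S100a8 by 2.08. Neutrophil markers summed to at most 15.5 FPKM in any group, with Mpo and Ly6g listed at 0 in at least 1, B and T cell markers to at most 3.99 and cholangiocyte markers to at most 4.79. Of 5 stellate cell markers 1 rose and 2 fell in Atf4-/- livers, and of 4 endothelial markers 1 fell. The part of these shifts in the member values was not tested.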

How the data were processed

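RNA-Seq of poly-A RNA was made by the authors with an unstranded TruSeq kit, so overlapping genes cannot be told apart. Per the labels and the study's methods, reads were mapped to mm10 with TopHat and expression was estimated with Cuffdiff. The deposited table holds FPKM values made by the authors, 1 per gene and group of 3 libraries, with interval bounds in FPKM and a status. No counts per gene are given, so the counting error of a value is unknown and precision was taken from the intervals. The paper lists the total and mapped reads of each library, which were not used here. All value columns mapped to a group and 0 were left out.

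Grouping followed the sample labels, and 7 comparisons were made on log2(FPKM + 0.1) with pandas 2.3.3 and numpy 2.4.6. Combined error, eligibility (FPKM over 3) and calls (log2 over 1.5) are defined above. The rules were run on simulated data with noise set smaller than the intervals imply. That run checks the code and does not measure how often the rules err in these data. The fold and FPKM limits follow the study's methods. No test over samples was possible, and no p-value was computed. The same mice served as control in several comparisons. Alternatives were other pseudocounts, no FPKM filter, 2 scalings of the groups, a lower fold limit, and member sets named in the closing section.

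Members and gene lists were chosen with earlier results of these data known. FPKM in all groups was given for each member called in any comparison, each past the combined error in any ASNase response, and the most abundant of each role. Other genes named are the 3 with the largest difference past the error per list and response, and Myc, Eif2ak4 and Atf4. Genes of cell marker lists were named sparingly, and genes outside these rules (among them Mki67, Top2a, Pcna, Sdad1, Marco, Ttr and Apoc3) were picked after their values were seen. Promoter sequences are from RefSeq, and positions from GENCODE.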

Additional observations from a re-analysis of the deposited data

How the results depend on the processing

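Of 169 alternative values of the main counts and medians, 160 stayed within set limits, and the other 9 were counts. The limit was 1.5 times for a count and, for a median, 0.5 times the median combined error of the members. That error was 0.91 in WT and 0.84 in Gcn2-/- livers, so the limit for medians is wide. A WT median that went from 0.13 to 0.28 stayed within it. Counts of 0 that stayed at 0 are among the 160, so this share says little about how firm the results are. With the 6 groups scaled to the same summed FPKM, called members in the Atf4-/- response went from 5 to 3, without Rrs1 and Ddx21, members past the combined error in Gcn2-/- against WT under ASNase from 2 to 1, and in Atf4-/- against WT under ASNase from 21 to 9, with calls from 3 to 0. Differences of responses past the error went from 9 to 1 for Atf4-/- against WT and from 9 to 2 for Atf4-/- against Gcn2-/-. By construction this scaling multiplied the Atf4-/- ASNase and Atf4-/- PBS values by different factors and moved all genes alike. Alternatives on the member set were added after seeing the data. With only members over 3 FPKM under PBS, those past the error in the Gcn2-/- response went from 7 to 4. Without members that share exon bases with another gene, they went from 23 to 13 in the Atf4-/- response and from 21 to 12 in Atf4-/- against WT under ASNase, out of 22 members. With Noc2l added, no count or median moved past these limits.

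The median of the members ran from 0.89 to 1.15 in the Atf4-/- response, from 0.19 to 0.48 in Gcn2-/- and from 0.12 to 0.28 in WT livers over all alternatives. Of 288 alternative values of single named members, 276 kept their side of the error, 11 lost it, 1 gained it and 0 changed direction while past it. The 288 include all WT values, none of which was past the error. Only members past it at first could lose it: 23 in Atf4-/- livers, and 6 that rose and 1 that fell in Gcn2-/- livers. With the same summed FPKM in every group 8 values lost it. No paired analysis was possible because the table holds 1 value per group and no value per library, and leaving out each replicate in turn was not run for the same reason. The number of reads behind each value is unknown. Intervals about as wide as the value leave changes under about 2-fold mostly within the error.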

Other observations

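Noc2l, a nucleolar partner of Noc3l in 60S assembly, was matched by its Ensembl identifier (ENSMUSG00000095567), since the table gives it a clone name. It had 9.87, 9.80 and 8.31 FPKM in WT, Gcn2-/- and Atf4-/- livers under PBS, and 11.6, 9.31 and 17.5 after ASNase. Its response in Atf4-/- livers was a log2 difference of 1.07, past a combined error of 0.74, and in Gcn2-/- livers it was -0.07. Its highest value was in Atf4-/- ASNase livers, as for 38 of the 39 members found by symbol.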
